A study of Rattus norvegicus with 6 samples.

Results

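The genes described here encode the peroxisome proliferator-activated receptors (Pparg, Ppara and Ppard), the retinoid X receptors they pair with (Rxra, Rxrb and Rxrg), the PGC-1 coactivators (Ppargc1a and Ppargc1b), the adipogenic factor C/EBP alpha (Cebpa) and the liver X receptor alpha (Nr1h3). They were taken from the deposited count table by gene name, which gave 10 of its 30562 genes. The RNA was from the intervertebral disc of wild-type rats. By the paper's account, a tail disc of 12-week-old male Sprague-Dawley rats was punctured with a needle in both groups, and treatment began 24 h later and ran over 8 weeks. The group labelled AF-PTK@LEV@SPP1 received 10 μL of a vesicle made by fusing liposomes with bacterial outer membrane vesicles, which carries a peptide for binding the annulus fibrosus (AF) on a linker cut by reactive oxygen species, and an siRNA against Spp1 at 1 mg/kg. The group labelled Control received PBS. The sample records differ from that account: they give an untreated control, a treatment of 14 days and macrophages sorted from mouse discs. The table itself held abundant disc matrix transcripts: 7 markers of annulus and tendon summed to 39491 to 72808 normalized CPM (library sizes scaled by trimmed mean of M-values) in the 6 libraries, with Col1a1 the most abundant, against 653 to 2901 CPM for 10 macrophage markers.

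The Control libraries held 17942989, 16565291 and 17489851 counts in replicates 1, 2 and 3. The AF-PTK@LEV@SPP1-labelled libraries held 17074981, 15560728 and 17855184 counts. A gene with 3 counts stood at 0.167 to 0.193 CPM of these totals, which was taken as the smallest measurable level and covers counting error only. Control replicates 2 and 3 differed with 1.33 times the variance of counting noise, and 16 of 14393 genes differed between them, against 51.3 to 107 times that variance in the 5 other pairs within a group. They were therefore summed and counted as 1 sample, which left n = 2 distinct Control samples and n = 3 labelled AF-PTK@LEV@SPP1. With 3 samples against 2, the smallest p of a two-sided exact permutation test is 0.1.

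Spp1, the target of the siRNA, encodes osteopontin. It had 8122 (Control replicate 1), 4411 (replicate 2) and 4417 (replicate 3) normalized CPM in Control, and 8054 (replicate 1), 6903 (replicate 2) and 8461 (replicate 3) in AF-PTK@LEV@SPP1-labelled libraries. Control replicate 1 was as high as the other group, and replicates 2 and 3 were below it, so Spp1 was not lower under this label, and every direction below refers to the label alone. Its log2 fold change was 0.31, with a 95% interval of -0.62 to 1.24 (adjusted p = 0.628, edgeR's quasi-likelihood test with Benjamini-Hochberg adjustment over all genes tested).

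PPARs are receptors for fatty acids and their derivatives, and they bind DNA as a heterodimer with an RXR. PPARG drives the formation of fat cells together with C/EBP alpha and represses inflammatory genes in macrophages, while PPARA and PPARD induce genes of fatty acid oxidation, with PGC-1 proteins as coactivators. The liver X receptor alpha also pairs with RXR and, on binding oxysterols, induces genes of cholesterol efflux in macrophages.

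Among the 10 genes, Pparg and Rxrg had the largest differences between the groups, and Rxra had the smallest. Log2 fold changes were positive for 7 and negative for 3. All 10 passed the filter on low counts, and edgeR's quasi-likelihood test called 0 of them at an adjusted p under 0.05, where it called 575 of the 15537 genes tested (3.7%), 175 higher and 400 lower. At an unadjusted p under 0.05, the same fit held 2 of the 10 and 25.4% of all genes tested. With the 6 libraries kept apart, edgeR called 2 of them and 18.1% of all genes tested, DESeq2 on the 5 distinct samples called 2 and 16.6% of all genes tested, and limma-voom called 0, where it called 454 of the 15537 genes. The 2 were Pparg and Rxrg in both cases. The libraries did not overlap between the groups for 3 of the 10, which is below the 41.9% of all genes tested. The number of genes called depended on single libraries: it was 280 without Control replicate 1, 113 without AF-PTK@LEV@SPP1 replicate 1 and 0 without AF-PTK@LEV@SPP1 replicate 2 or without AF-PTK@LEV@SPP1 replicate 3. Without Control replicate 2 or replicate 3 it was at most 566. None of the 10 genes was called by edgeR with any of the 6 libraries left out.

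**Figure D1:**
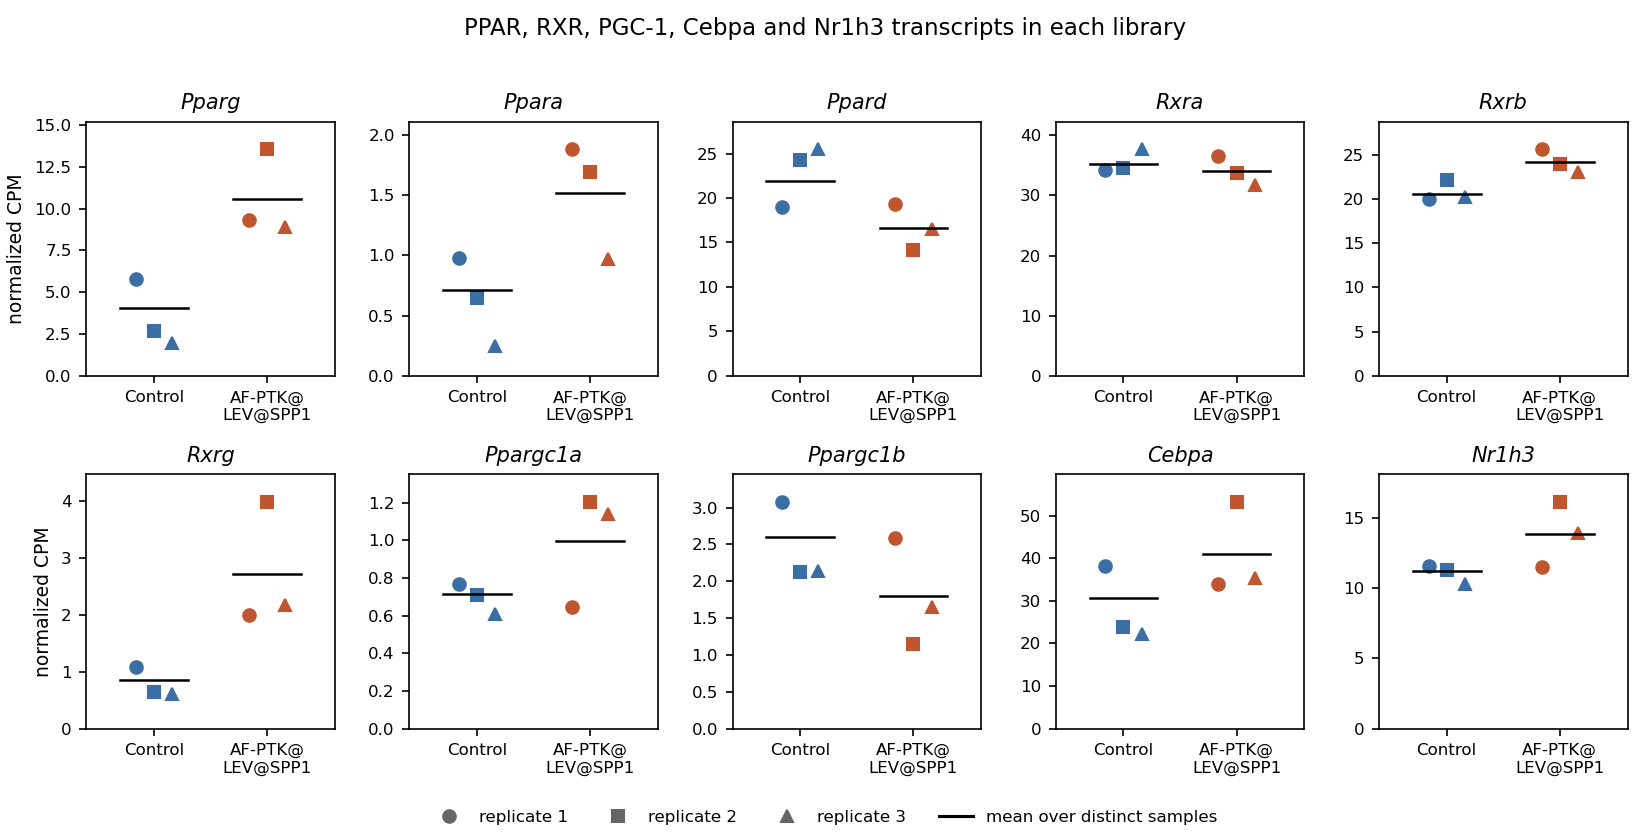
Normalized CPM of each of the 10 genes (y axes start at 0) in the 3 Control libraries (blue) and the 3 AF-PTK@LEV@SPP1-labelled libraries (orange); symbols mark the replicate and lines the mean over distinct samples, with Control replicates 2 and 3 averaged. Every library labelled AF-PTK@LEV@SPP1 lies above every Control library for Pparg, Rxrb and Rxrg.

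Pparg, on chromosome 4 from 148423194 to 148548468 (+ strand, ENSRNOG00000008839) in the deposited annotation, is the receptor on which fat cell formation depends. The rat build behind these coordinates is not given in the sources used here. Pparg had 5.80, 2.70 and 1.95 normalized CPM in Control replicates 1, 2 and 3 and 9.35, 13.6 and 8.89 in AF-PTK@LEV@SPP1-labelled libraries, from 113, 42, 32, 159, 225 and 156 counts. The groups did not overlap, Control replicate 1 was the highest of its group, and AF-PTK@LEV@SPP1 replicate 2 was the highest of all. The means were 10.6 ± 2.58 (SD, n = 3) against 4.07 ± 2.46 (SD, n = 2), a log2 fold change of 1.39 with a standard error of 0.46 and a 95% interval of 0.24 to 2.54 (adjusted p = 0.147, edgeR). The exact permutation test gave p = 0.1, the smallest possible here. Without Control replicate 1 the log2 fold change of Pparg was 2.17. The call turned on the treatment of the near-identical pair and on the tool, since the adjusted p was 0.04996 in edgeR with the 6 libraries kept apart, just under the threshold, and 0.0404 in DESeq2. It was 0.103 in edgeR with the 6 libraries kept apart and the replicate number fitted beside the group, and 0.106 in limma-voom.

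Ppara, on chromosome 7 from 116832756 to 116895346, encodes the receptor that induces fatty acid oxidation in liver and muscle. It was counted 19, 10 and 4 times in Control and 32, 28 and 17 times in AF-PTK@LEV@SPP1-labelled libraries, which is 0.976, 0.643 and 0.244 normalized CPM against 1.88, 1.69 and 0.969. AF-PTK@LEV@SPP1 replicate 3 lay just below Control replicate 1, so the groups overlapped. The log2 fold change of 1.11 had a 95% interval of -0.26 to 2.48 (adjusted p = 0.265, edgeR), and at these counts a difference of this size was not separated from the spread.

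Ppard, on chromosome 20 from 6298785 to 6363968, encodes the most widely expressed PPAR. It had 19.0, 24.3 and 25.5 normalized CPM in Control and 19.3, 14.2 and 16.5 in AF-PTK@LEV@SPP1-labelled libraries. Control replicate 1 and AF-PTK@LEV@SPP1 replicate 1 were nearly level, and the other 2 Control libraries lay above all the rest. Its log2 fold change was -0.41, with a 95% interval of -0.92 to 0.10 (adjusted p = 0.267, edgeR). The direction of Ppard was thus the opposite of those of Pparg and Ppara, but none of the 3 passed the test, and the difference between these genes was not tested.

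Rxra, on chromosome 3 from 10989832 to 11073712, encodes a partner shared by the PPARs, the liver X receptors and other receptors. It had 34.2, 34.6 and 37.7 normalized CPM in Control and 36.6, 33.7 and 31.7 in AF-PTK@LEV@SPP1-labelled libraries. The groups overlapped. A log2 fold change of -0.06 had a 95% interval of -0.34 to 0.23 (adjusted p = 0.782, edgeR), the narrowest interval of the 10 genes.

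Rxrb, on chromosome 20 from 4816815 to 4828773 (- strand), encodes a widely expressed RXR. It had 20.03, 22.1 and 20.2 normalized CPM in Control and 25.6, 23.9 and 23.1 in AF-PTK@LEV@SPP1-labelled libraries. The groups did not overlap, but they lay close together. For Rxrb the log2 fold change was 0.22, with a 95% interval of -0.07 to 0.52 (adjusted p = 0.287, edgeR). The span of Rxrb overlaps Slc39a7 and Hsd17b8 on the other strand. Slc39a7 was listed at 0 counts in all 6 libraries and Hsd17b8 at 0 to 8, and since the use of strand in counting is not given in the sources used here, the reads of Rxrb may include reads from these neighbors.

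Rxrg, on chromosome 13 from 79743563 to 79785167 (+ strand, ENSRNOG00000004537), encodes the RXR of skeletal muscle, brain and few other tissues. It had 1.08, 0.643 and 0.611 normalized CPM in Control and 2.00, 3.98 and 2.17 in AF-PTK@LEV@SPP1-labelled libraries, from 21, 10, 10, 34, 66 and 38 counts. The groups did not overlap, and AF-PTK@LEV@SPP1 replicate 2 stood above the other 5 libraries. The means were 2.72 ± 1.10 (SD, n = 3) against 0.853 ± 0.319 (SD, n = 2), a log2 fold change of 1.67 with a standard error of 0.49 and a 95% interval of 0.42 to 2.92 (adjusted p = 0.124, edgeR; exact permutation test p = 0.1). The adjusted p was 0.0332 in edgeR with the 6 libraries kept apart and 0.0338 in DESeq2. It was 0.114 in edgeR with the replicate number also fitted to the 6 libraries, and 0.124 in limma-voom. Without AF-PTK@LEV@SPP1 replicate 2 the log2 fold change was 1.30 (adjusted p = 0.229, edgeR).

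**Figure D2:**
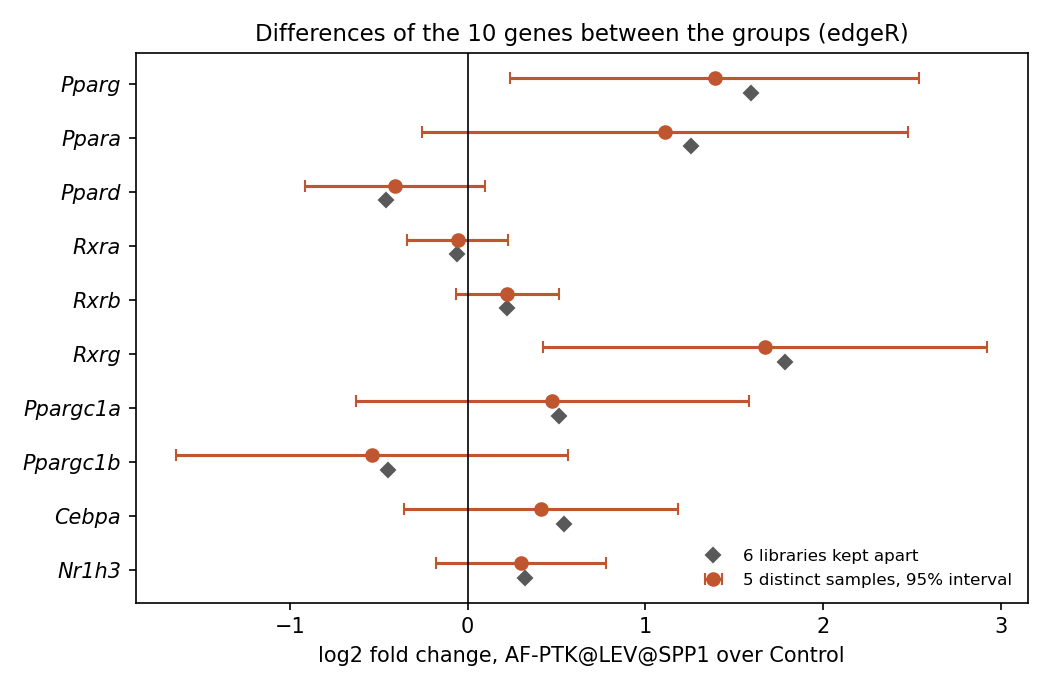
Log2 fold change of each of the 10 genes, libraries labelled AF-PTK@LEV@SPP1 over Control, from edgeR on the 5 distinct samples (circles, with 95% intervals) and on the 6 libraries kept apart (diamonds). The intervals of Pparg (0.24 to 2.54) and Rxrg (0.42 to 2.92) lie above 0 before any adjustment over genes, and the other 8 include 0.

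Ppargc1a, on chromosome 14 from 58861144 to 59512656, encodes the coactivator PGC-1 alpha, which induces mitochondrial biogenesis in brown fat and muscle. It was counted only 15, 11 and 10 times in Control and 11, 20 and 20 times in AF-PTK@LEV@SPP1-labelled libraries, or 0.770, 0.708 and 0.611 against 0.647, 1.21 and 1.14 normalized CPM. AF-PTK@LEV@SPP1 replicate 1 lay within the Control range and the other libraries of its group above it. The log2 fold change of 0.48 had a 95% interval of -0.63 to 1.58 (adjusted p = 0.531, edgeR), so changes of either sign fit these counts. An unnamed gene that overlaps its span had 1 count in 1 library and 0 in the others.

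Ppargc1b, on chromosome 18 from 54758902 to 54861194 (- strand), encodes the related coactivator PGC-1 beta. It had 3.08, 2.12 and 2.14 normalized CPM in Control and 2.59, 1.15 and 1.65 in AF-PTK@LEV@SPP1-labelled libraries. The groups overlapped through AF-PTK@LEV@SPP1 replicate 1. For Ppargc1b the log2 fold change was -0.54, with a 95% interval of -1.64 to 0.56 (adjusted p = 0.477, edgeR). A microRNA gene on the other strand within its span, Mir3557, had 3 to 8 counts per library.

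Cebpa encodes a transcription factor that acts with PPARG in fat cells and also directs the granulocyte lineage. The row named Cebpa, on chromosome 1 from 87759433 to 87762412, is listed as a long noncoding RNA on the - strand, whereas RefSeq (GRCr8) gives protein-coding Cebpa on the + strand. Of 84 neighbors of the same name within 3 Mb on either side, 81 had the same strand in both annotations. Which transcript this row counted is therefore uncertain, and a pseudogene row that overlaps it on the + strand was at 0 counts in all 6 libraries. The row had 38.2, 23.8 and 22.2 normalized CPM in Control and 33.99, 53.3 and 35.4 in AF-PTK@LEV@SPP1-labelled libraries. Control replicate 1 lay above AF-PTK@LEV@SPP1 replicates 1 and 3, so the groups overlapped. The fit gave a log2 fold change of 0.41, with a 95% interval of -0.36 to 1.19 (adjusted p = 0.435, edgeR).

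Nr1h3, on chromosome 3 from 77158808 to 77168722, encodes the liver X receptor alpha. It had 11.6, 11.3 and 10.3 normalized CPM in Control and 11.5, 16.2 and 13.9 in AF-PTK@LEV@SPP1-labelled libraries. AF-PTK@LEV@SPP1 replicate 1 lay within the Control range. The log2 fold change of 0.30 had a 95% interval of -0.18 to 0.78 (adjusted p = 0.369, edgeR). Each of the 10 genes kept the sign of its log2 fold change under the other scalings tried (relative log expression and upper quartile).

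The profiles of the 10 genes over the 5 distinct samples were set beside that of Pparg, as the root-mean-square distance between log2 CPM centered on each gene's mean. Rxrg was the nearest of the other members, at 0.23, followed by Ppara at 0.36 and Cebpa at 0.54. Ppard and Ppargc1b were the farthest, at 1.11 and 1.16, against a median of 0.88 over the 13034 genes compared. Outside the 10, the genes closest to Pparg were Gsta6 (0.07), Eya4 (0.12), Tst (0.12), Satb1 (0.13), Sh3tc2 (0.13), Pdzd2 (0.14), Acsl1 (0.14) and LOC120093819 (0.15). Acsl1 activates long-chain fatty acids and belongs to the adipocyte targets of PPARG, Tst is a mitochondrial thiosulfate sulfurtransferase, and Gsta6 belongs to the glutathione S-transferase family, whose similar copies can share reads. With 5 samples such a likeness is a description only.

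Markers of fat cells moved with Pparg. The 10 adipocyte markers summed to 536, 106 and 109.8 normalized CPM in Control replicates 1, 2 and 3 and to 1144, 1864 and 858 in AF-PTK@LEV@SPP1-labelled libraries, with Fabp4 the most abundant, and none of the 10 was at 0 throughout. The order of the libraries was nearly that of Pparg: AF-PTK@LEV@SPP1 replicate 2 was highest in both, and Control replicate 1 stood between its own group and the other. All 10 markers were higher in every library labelled AF-PTK@LEV@SPP1 than in every Control library, as were 21.8% of all genes tested. Their median log2 fold change was 1.86 against 0.05 over all genes tested, but edgeR called 0 of them (5 at an unadjusted p under 0.05; 2 with the 6 libraries kept apart, 5 in DESeq2 and 0 in limma-voom). Over all genes tested, 25.4% had an unadjusted p under 0.05, 18.1% were called with the 6 libraries kept apart and 16.6% in DESeq2. Per 1000 CPM of these markers, Pparg stood at 10.8, 25.5 and 17.8 CPM in Control and at 8.17, 7.28 and 10.4 in AF-PTK@LEV@SPP1-labelled libraries. The ratio was lower in every AF-PTK@LEV@SPP1-labelled library than in every Control library. However, Control replicate 1 (10.8) and AF-PTK@LEV@SPP1 replicate 3 (10.4) were nearly level, from 113 and 156 counts of Pparg. Since 8 of the 10 markers are themselves targets of PPARG, the ratio does not separate fat cell content from the level of Pparg per cell. In bulk tissue, fewer cells of a type and less RNA per cell cannot be told apart, and the part of fat cells in the difference of Pparg was not tested. Of the brown fat markers, Cidea was the most abundant, with 109, 47 and 33 counts in Control and 80, 183 and 66 under the other label, with overlap (log2 fold change 0.68, adjusted p = 0.519, edgeR). Elovl3 had at most 2 counts in any library and Ucp1 at most 4.

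**Figure D3:**
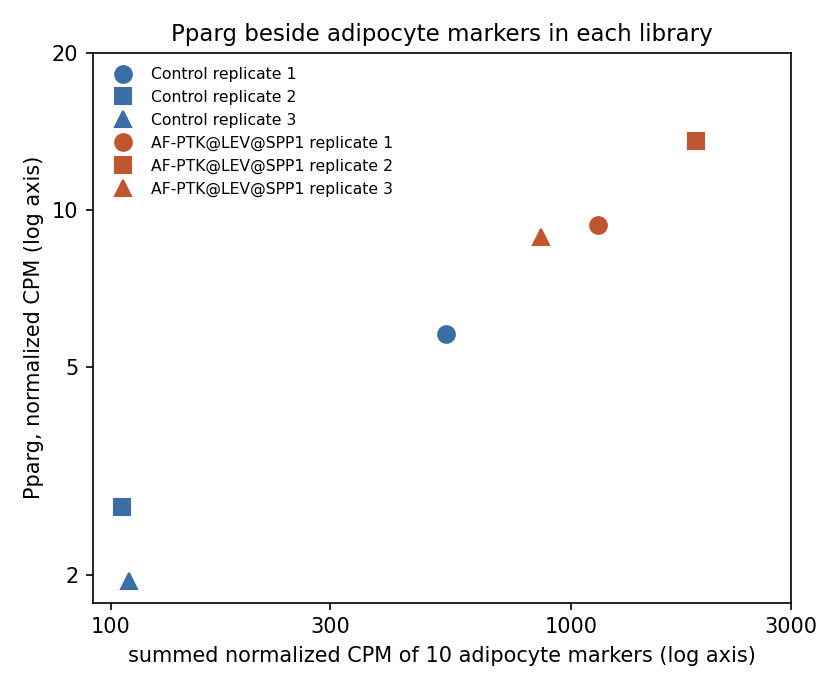
Pparg (y axis, normalized CPM, log scale) against the summed normalized CPM of 10 adipocyte markers (x axis, log scale) in each of the 6 libraries. Control replicates 2 and 3 sit at the lower left, Control replicate 1 at 5.80 CPM of Pparg in the middle, and the 3 AF-PTK@LEV@SPP1-labelled libraries at the upper right.

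Other tissue markers also differed between libraries. The 11 skeletal muscle markers in the table summed to 1273, 1695 and 1729 normalized CPM in Control and to 1221, 13120 and 3241 in AF-PTK@LEV@SPP1-labelled libraries, with Myh4 the most abundant in each Control library and Acta1 in each of the others. AF-PTK@LEV@SPP1 replicate 2, the library with most Rxrg, thus held the most muscle transcripts, while AF-PTK@LEV@SPP1 replicate 1 had more Rxrg than any Control library at a muscle level below theirs. Ppargc1a had 20 counts in both AF-PTK@LEV@SPP1 replicate 2 and AF-PTK@LEV@SPP1 replicate 3. Erythroid markers, led by Hba-a1, summed to 2393, 3188 and 3278 in Control and to 2508, 20591 and 14109, and neutrophil and myeloid precursor markers, led by S100a9 or S100a8 in each library, to 1055, 181 and 171 against 263, 2486 and 3503. Ltf, of the second list, was at or near 0 in every library. Both lists were high in AF-PTK@LEV@SPP1 replicates 2 and 3, and the second was also high in Control replicate 1. Schwann cell markers, of which S100b had the most counts over the 6 libraries together, summed to 293, 273 and 254 against 468, 958 and 1291. The part of these cells in the levels of Rxrg, Ppargc1a and Cebpa was not tested. Median log2 fold changes were -0.44 for endothelial, 0.57 for nucleus pulposus and chondrocyte, 0.48 for annulus and tendon, and -1.02 for osteoblast and osteoclast markers, and in edgeR on the 5 distinct samples only the last of these 4 lists held called genes (Acp5 and Ctsk, both lower). DESeq2, which called 16.6% of all genes tested, called 3 endothelial and 3 osteoblast and osteoclast genes lower. It called 5 Schwann cell, 3 erythroid, 2 nucleus pulposus, 1 skeletal muscle and 1 annulus gene higher. With the 6 libraries kept apart, where it called 18.1% of all genes tested, edgeR called 4 Schwann cell genes higher. It called 4 endothelial and 2 osteoblast and osteoclast genes lower. Medians were 3.20 for erythroid, 2.11 for Schwann cell, 1.97 for skeletal muscle and 1.71 for neutrophil markers, and edgeR on the 5 distinct samples called 0 of these.

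Genes known to respond to the 10 regulators, or to work with them, were read from 7 lists in the same fit. The calls in each list stand beside those over all genes tested, of which edgeR called 3.7%, or 18.1% with the 6 libraries kept apart, and DESeq2 16.6%. Of the 22 tested adipocyte target genes of PPARG, 22 had a positive log2 fold change, with a median of 1.84 against 0.05 over all genes tested, and 20 did not overlap between the groups, against 41.9% of all genes tested. Called by edgeR was 1 of them, higher in AF-PTK@LEV@SPP1-labelled libraries, against 8 with the 6 libraries kept apart, 13 in DESeq2, 1 in limma-voom and 2 under the replicate block, which fits the replicate number beside the group and also keeps the 6 libraries apart. Scd, a fatty acid desaturase, was the most abundant of the list in every library, and Fabp4, a fatty acid carrier, came after Lpl in Control and directly after Scd under the other label. Scd had 631, 128 and 131 normalized CPM in Control and 1106, 2461 and 829 in AF-PTK@LEV@SPP1-labelled libraries, and Fabp4 had 239, 47.3 and 52.5 against 544, 757 and 398. Neither passed the adjustment (adjusted p = 0.226 and 0.175, edgeR), and Control replicate 1 again stood apart from the other Control libraries. The list shares 8 genes with the adipocyte markers, which is 33.3% of the list and 80.0% of the markers.

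Of 21 tested fatty acid oxidation targets of PPARA and PPARD, 14 had a positive and 7 a negative log2 fold change, with a median of 0.11, and edgeR called 0 higher and 1 lower, against 3 and 2 with the 6 libraries kept apart, 2 and 2 in DESeq2 and 1 and 1 in limma-voom. The shares called over all genes tested were 3.7% in edgeR, 18.1% with the 6 libraries kept apart and 16.6% in DESeq2. The called gene was Plin2, a coat protein of lipid droplets, with 148, 174 and 175 normalized CPM in Control and 75.9, 90.7 and 80.6 in AF-PTK@LEV@SPP1-labelled libraries (log2 fold change -0.97, adjusted p = 0.0369, edgeR). Hadha, a subunit of the mitochondrial trifunctional enzyme, was at 108 ± 4.46 (SD, n = 2) in Control and 109 ± 9.96 (SD, n = 3), a log2 fold change of 0.01 with a 95% interval of -0.30 to 0.32.

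Of 24 tested adipogenic transcription factors and inhibitors of adipogenesis, 19 had a positive log2 fold change, with a median of 0.40. Only Cebpd passed the test in edgeR on the 5 distinct samples, and it was lower. Cebpd, which acts early in fat cell formation and is also induced by inflammatory cytokines, had 40.7, 52.9 and 50.1 normalized CPM in Control and 10.7, 8.93 and 13.7 in AF-PTK@LEV@SPP1-labelled libraries (log2 fold change -2.06, adjusted p = 0.0230, edgeR). The row of Cebpa thus had the opposite sign to those of its family members Cebpd and Cebpb. Cebpb had a log2 fold change of -0.99 and did not pass (adjusted p = 0.0536, edgeR), but it was called lower with the 6 libraries kept apart and in DESeq2. With the 6 libraries kept apart, edgeR called 5 genes of the list higher and 2 lower without the replicate block, and 4 higher and 1 lower with it. Id2, an inhibitor of helix-loop-helix factors, and Nr3c1, the glucocorticoid receptor, had the highest mean CPM of the list over the libraries, and their values of 0.51 and 0.26 did not pass (adjusted p = 0.465 and 0.254, edgeR).

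For the next 2 lists, the shares over all genes tested were 3.7% called in edgeR and 25.4% at an unadjusted p under 0.05. They were 18.1% called with the 6 libraries kept apart and 16.6% in DESeq2. Among the 17 tested coactivators and corepressors, edgeR called 0 (5 higher and 1 lower at an unadjusted p under 0.05; 4 higher and 1 lower with the 6 libraries kept apart, 1 higher and 1 lower in DESeq2, 0 in limma-voom). The median log2 fold change was 0.21. The corepressor Ncor1 was the most abundant, at 113 ± 6.17 normalized CPM in Control (SD, n = 2) and 139.7 ± 14.9 in AF-PTK@LEV@SPP1-labelled libraries (SD, n = 3). Among the 10 tested receptors that also pair with RXR, edgeR called 0 (2 higher and 3 lower at an unadjusted p under 0.05; 2 higher and 2 lower with the 6 libraries kept apart and in DESeq2, 0 in limma-voom), with a median of 0.13. Rarg, a retinoic acid receptor, and Thra, a thyroid hormone receptor, had the highest mean CPM over the libraries and stood at 0.04 and 0.67 (adjusted p = 0.923 and 0.0888, edgeR). Thra was higher in every library labelled AF-PTK@LEV@SPP1 than in every Control library, but its span overlaps Nr1d1 on the other strand, so its counts are uncertain.

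The LXR target genes, which respond to Nr1h3 and its relative Nr1h2, held the most called genes of the 7 lists in edgeR on the 5 distinct samples, but not with the 6 libraries kept apart, in DESeq2 or under the replicate block. Of 12 tested, edgeR called 0 higher and 4 lower, against 2 and 5 with the 6 libraries kept apart and in DESeq2 and 0 and 3 in limma-voom, and the median log2 fold change was -0.54. Over all genes tested, edgeR called 3.7%, or 18.1% with the 6 libraries kept apart, and DESeq2 16.6%. Apoe, an apolipoprotein that macrophages secrete for cholesterol efflux, had 2004, 1664 and 1698 normalized CPM in Control and 424, 366 and 288 in AF-PTK@LEV@SPP1-labelled libraries (log2 fold change -2.37, adjusted p = 0.0212, edgeR). Arl4c, a small GTPase, had 17.7, 28.0 and 28.8 against 3.18, 4.04 and 3.13 (log2 fold change -2.75, adjusted p = 0.0209, edgeR). For both genes every Control library lay far above every library of the other label. Smpdl3a, a phosphodiesterase, had 175, 205 and 203 against 55.0, 69.7 and 86.6 (log2 fold change -1.44, adjusted p = 0.0393, edgeR). Apoc1, the neighbor of Apoe on chromosome 1, was counted 23, 14 and 19 times in Control and 2, 3 and 2 times in AF-PTK@LEV@SPP1-labelled libraries, 7.96 times as high in Control, with a 95% counting interval of 3.62 to 20.7 (adjusted p = 0.0402, edgeR, 0.0545 under the replicate block and 0.0543 in limma-voom). Of the 12, 8 had a negative and 4 a positive log2 fold change. Among the negative, Abca1 was at -0.67 and did not pass (adjusted p = 0.0699, edgeR). Abca1 was called lower with the 6 libraries kept apart and in DESeq2. On the other side were Scd, which is also an LXR target, at 1.94, Srebf1 at 0.64 (adjusted p = 0.0779, edgeR) and Mylip at 0.56 (adjusted p = 0.0522, edgeR). Nr1h2, which is itself on the list, was also positive, at 0.22 (adjusted p = 0.372, edgeR). Srebf1 and Mylip were called higher with the 6 libraries kept apart and in DESeq2, and Scd in neither. Nr1h3 itself had a log2 fold change of 0.30, with a 95% interval of -0.18 to 0.78 and overlap between the groups. Its part in the levels of these targets was not tested. Macrophage markers moved in part with the 4 called LXR targets. The 10 markers summed to 2901, 2009 and 2000 normalized CPM in Control and to 653, 1840 and 1894 under the other label, with Lyz2 the most abundant. Their median log2 fold change was -0.81, with 9 negative and 1 positive (Cd163, 1.15), and edgeR called 2 lower (Cd68 and Cd14) and 0 higher, against 3 lower with the 6 libraries kept apart and 5 lower in DESeq2. The part of macrophages in the levels of the LXR targets was not tested.

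Of 16 tested PGC-1 partners and genes of mitochondrial biogenesis, edgeR called 0 higher and 1 lower, with a median of 0.10, against 1 higher and 1 lower with the 6 libraries kept apart and in DESeq2. Of all genes tested, 3.7% were called in edgeR, 18.1% with the 6 libraries kept apart and 16.6% in DESeq2. Sod2, the mitochondrial superoxide dismutase that PGC-1 alpha and inflammatory signals both induce, had 756, 938 and 957 normalized CPM in Control and 91.1, 90.4 and 110.4 in AF-PTK@LEV@SPP1-labelled libraries (log2 fold change -3.14, adjusted p = 0.0119, edgeR). Vegfa, an angiogenic factor that PGC-1 alpha can induce, stood at 0.33 (adjusted p = 0.738, edgeR). Over the 7 lists edgeR called 8 genes, and it called 6 without Control replicate 1, 1 without AF-PTK@LEV@SPP1 replicate 1 and 0 without AF-PTK@LEV@SPP1 replicate 2 or without AF-PTK@LEV@SPP1 replicate 3.

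**Figure D4:**
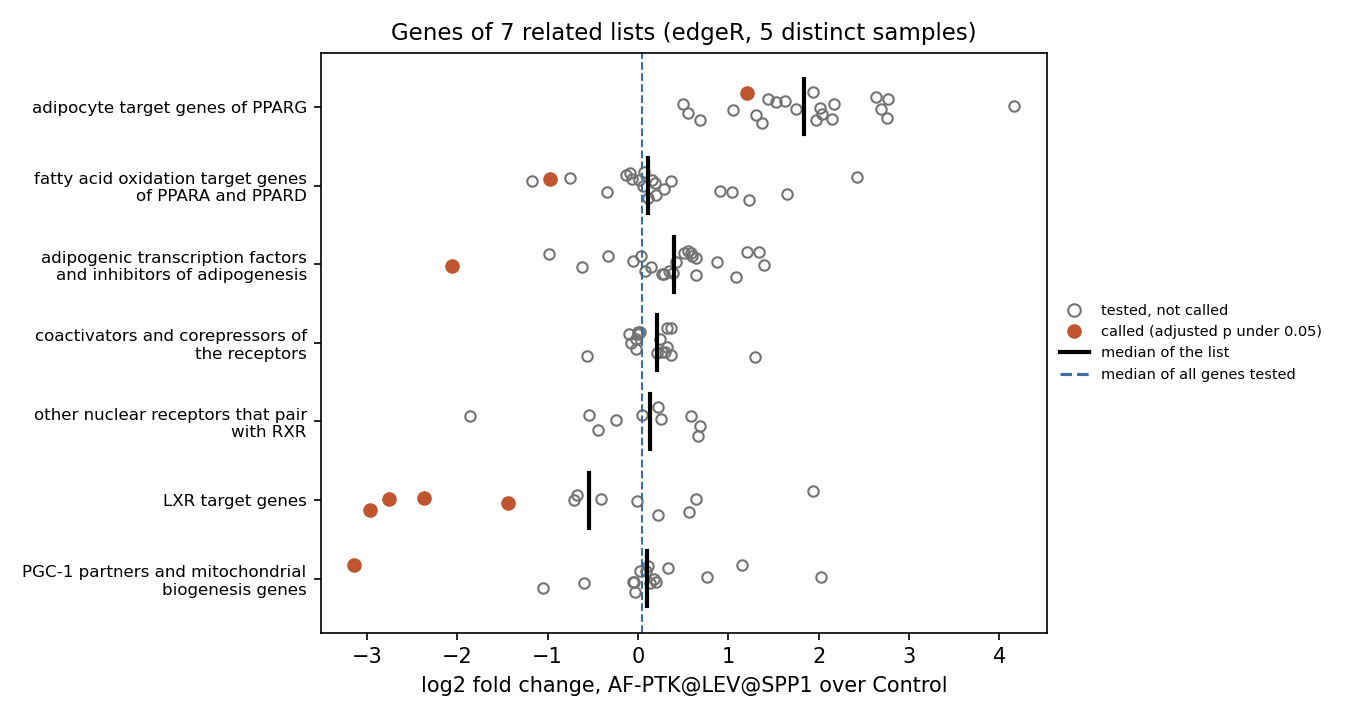
Log2 fold change of each tested gene of 7 lists (x axis, libraries labelled AF-PTK@LEV@SPP1 over Control, edgeR on 5 distinct samples), with called genes filled, the median of each list as a bar and the median of all genes tested as a dashed line. The adipocyte targets of PPARG all lie above 0 with a median of 1.84, and the 4 called LXR targets lie below -1.

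The sequence before the starts of these genes was read from RefSeq (GRCr8), which gave 10 windows for 9 of the 10 genes, 2 of them for Pparg. Ppard had none. The 250 bases before each start were searched on both strands for AGGTCA, the hexamer nuclear receptors bind, for its variant GGGTCA, for a pair of AGGTCA copies 1 base apart, the arrangement PPAR and RXR bind together, and for TTNNGCAA, a pattern C/EBP factors bind. AGGTCA was in 0 of the 10 windows and in 14.1% of all 33469 windows of that length, and the pair was in 0 and in 0.0508%. GGGTCA was in 2 windows, both of Pparg, and in 11.9% of all, and TTNNGCAA was in 2, of Rxra and of the downstream start of Pparg, and in 9.22% of all. The windows of Pparg and Rxrg are shown because these 2 genes had the largest differences and the nearest profiles among the 10. Capitals mark matches to GGGTCA or TTNNGCAA on either strand. The first line is chr4:150096808-150097057, the second chr4:150154522-150154771 and the third chr13:82276237-82276486, all on the + strand.
Pparg upstream start: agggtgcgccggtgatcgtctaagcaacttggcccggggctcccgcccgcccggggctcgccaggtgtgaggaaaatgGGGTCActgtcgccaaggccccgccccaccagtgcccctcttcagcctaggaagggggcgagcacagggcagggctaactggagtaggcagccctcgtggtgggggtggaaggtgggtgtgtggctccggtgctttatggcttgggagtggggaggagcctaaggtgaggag
Pparg downstream start: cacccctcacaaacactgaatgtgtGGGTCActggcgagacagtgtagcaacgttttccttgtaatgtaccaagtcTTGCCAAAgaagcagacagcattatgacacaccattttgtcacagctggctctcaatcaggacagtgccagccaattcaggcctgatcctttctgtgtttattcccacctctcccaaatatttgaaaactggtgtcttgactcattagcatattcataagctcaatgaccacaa
Rxrg start: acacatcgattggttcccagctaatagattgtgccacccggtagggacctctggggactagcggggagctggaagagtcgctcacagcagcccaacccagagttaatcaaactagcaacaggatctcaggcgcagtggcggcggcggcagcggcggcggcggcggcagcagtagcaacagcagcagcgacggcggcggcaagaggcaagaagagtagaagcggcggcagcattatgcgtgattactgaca
Such a match is a description of letters in the window and not evidence of binding. In the second line GGGTCA begins 225 bases before the start and the C/EBP pattern 174 bases before it, and in the first GGGTCA begins 172 bases before the start. The deposited counts are per gene and do not tell the 2 starts of Pparg apart.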

How the data were processed

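Bulk RNA of rat discs was measured in 6 libraries, 3 per group. The authors deposited raw counts per Ensembl gene. The submitters' processing notes name FastQC, Trimmomatic, HISAT2 and featureCounts without versions and a mouse build, while the table holds rat genes; the rat build and the use of strand are not given in the sources used here. Column names were matched to samples through the paper's group names. Control replicates 2 and 3 were summed as 1 sample. The fit used edgeR 4.0.16 under R 4.3.3 (TMM, filterByExpr with a minimum count of 10, quasi-likelihood test, Benjamini-Hochberg adjustment over 15537 genes), and the fit was tested on simulated data. Log2 CPM used a prior count of 2. Depth was 15560728 to 17942989 counts. Alternatives were DESeq2 1.42.0, limma 3.58.1 (voom), other scalings and filters, the replicate block, the 6 libraries kept apart and each library left out. The members, the 7 gene lists and the 11 marker lists were chosen with earlier results of these data known. Named are all members, per list the called genes (at most 4) and the 2 of highest mean CPM (not all are described), and the 8 genes most like Pparg whose mean log2 CPM is 1 or more. Some listed genes that were called only in other fits, or not called, are named too. Listed genes not matched to 1 row (Cd36, Cd5l, Cox8b, Myh1, Krt19, Ncoa4 and Ep300) were not analysed here. Exon lengths were not used, so "most abundant" ranks genes by CPM only.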

Additional observations from a re-analysis of the deposited data

How the results depend on the processing

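One limit is that the Control group holds 2 distinct samples. Another is that Pparg, Rxrg and Ppara rest on 4 to 225 counts per library. The 10 genes kept their direction in all 146 combinations of gene and alternative. In 142 they also kept their side of the threshold, and the other 4 were calls of Pparg and Rxrg with the 6 libraries kept apart (log2 fold changes 1.59 and 1.78) and in DESeq2 (1.36 and 1.66). With each library left out, the log2 fold change was 1.18 to 2.17 for Pparg, 1.30 to 2.09 for Rxrg, 0.88 to 1.76 for Ppara, -0.60 to -0.30 for Ppard, -0.15 to -0.00 for Rxra, 0.15 to 0.26 for Rxrb, 0.32 to 0.68 for Ppargc1a, -0.93 to -0.26 for Ppargc1b, 0.18 to 0.81 for Cebpa and 0.18 to 0.38 for Nr1h3. The highest value of Cebpa was without Control replicate 1 and the lowest without AF-PTK@LEV@SPP1 replicate 2. With a minimum count of 50, 6 of the 10 were tested.

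Against 575 genes called in all, 0 of the 10 and 8 of the 7 lists, the counts were 2727, 2 and 37 with the 6 libraries kept apart and 2572, 2 and 38 in DESeq2. With each library left out they were 0 to 566, 0 to 0 and 0 to 8. Leaving out a library of the AF-PTK@LEV@SPP1 group leaves 2 samples against 2, and leaving out Control replicate 1 leaves a lone Control sample, which is assumed to vary like the other group. The cause was not tested. The log2 fold change of Spp1 was 0.25 to 0.81 with each library left out. With an absolute log2 fold change above 1 also required, 452 genes and 0 of the 10 were called.

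The replicate numbers were not shown to pair the samples: the correlations of deviations over genes were -0.306, -0.294 and -0.048 for libraries of the same number and -0.29 to 0.325 for the others. The fit with the replicate block also keeps the 6 libraries apart, so it stands beside the 2727, 2 and 37 above: with the replicate block, 741 genes, 0 of the 10 and 13 of the lists were called, and the log2 fold change of Spp1 was 0.53.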

Other observations

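Other nuclear receptors were read in the same fit, from a list of 41 genes of the family outside the 10, written after the values above had been seen. Of these, 27 were tested, and edgeR's quasi-likelihood test called 1 higher and 0 lower on the 5 distinct samples, where it called 3.7% of all genes tested. At an unadjusted p under 0.05 there were 11, against 25.4% of all genes tested. With the 6 libraries kept apart 9 were called, against 18.1% of all genes tested, and in DESeq2 9, against 16.6%. In limma-voom 1 was called, where 454 of all 15537 genes were, and under the replicate block 1, where 741 of 15042 were. The called gene was Nr3c2, the mineralocorticoid receptor, on chromosome 19 from 30715648 to 31059885. It had 12.6, 8.49 and 10.01 normalized CPM in Control and 62.3, 35.2 and 48.1 in AF-PTK@LEV@SPP1-labelled libraries. The groups lay far apart, and the log2 fold change was 2.14 with a standard error of 0.30 (adjusted p = 0.0364, edgeR).

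In the NR4A family, immediate-early receptors without a known natural ligand, Nr4a2 and Nr4a3 were on the other side and Nr4a1 was not (log2 fold change 0.25, adjusted p = 0.570, edgeR). Nr4a2 had 13.8, 40.8 and 40.6 normalized CPM in Control and 7.82, 5.73 and 9.12 in AF-PTK@LEV@SPP1-labelled libraries, without overlap (log2 fold change -1.86, adjusted p = 0.0992, edgeR). Nr4a3 had 3.80, 11.4 and 11.9 against 2.82, 2.11 and 1.48 (log2 fold change -1.87, adjusted p = 0.122, edgeR). None of the 3 passed the adjustment on the 5 distinct samples. Nr4a2 and Nr4a3 were called lower with the 6 libraries kept apart (adjusted p = 0.0273 and 0.0366, edgeR) and in DESeq2 (0.00507 and 0.0236). They were not called under the replicate block (adjusted p = 0.0944 and 0.145, edgeR) or in limma-voom (0.157 and 0.175). In Nr4a2 and Nr4a3 Control replicate 1 lay nearest to the other label. These genes were named after their values were seen.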
